A study of Mus musculus with 29 samples.

Results

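Forkhead (Fox) genes encode transcription factors that share a winged-helix DNA-binding domain, and the DNA methylation of their gene bodies and gene starts was compared in mouse lung. The members were the windows of the deposited whole-genome methyl-seq (WGMS) table that lie on an autosome and are named for a gene whose symbol starts with Fox, a lower-case letter and a digit. This gave 597 windows named for 39 genes, of 251181 autosomal windows and 260686 windows in all. Each window spans 100 CpG cytosines counted over both strands, so the median Fox window held 50 CpG dinucleotides, and its value is a percent methylation (%DNAm).

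The 29 libraries came from the lung of Balb/c offspring, described by the study as females aged 13 weeks, and were divided by maternal and offspring treatment. Sham dams received saline and PM dams received PM2.5 (fine airborne particulate matter) intranasally before mating, through gestation and until weaning. Offspring were either challenged with OVA (ovalbumin given by injection with alum and later as an aerosol, which induces allergic airways disease, AAD) or received a saline vehicle. Sham, Sham-OVA and PM held 7 libraries each and PM-OVA held 8. Neither the dam nor the litter of a library is given by the labels, so p-values measure the spread between these libraries. The tissue was homogenised lung with all of its cell types. A difference in the mixture of cells and a difference within a cell type therefore cannot be told apart. The study describes high coverage of every library, but the percentages carry no read depth, so the depth behind a window is unknown.

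Fox factors fall into families with separate roles. FoxA factors (Foxa1, Foxa2) open chromatin in foregut endoderm and act in the airway and alveolar epithelium, Foxj1 drives motile cilia, and Foxi1 is the factor of ionocytes. FoxO factors (Foxo1, Foxo3) are kept out of the nucleus when insulin and PI3K signalling through Akt is active, and act in lymphocyte homing and quiescence. FoxP factors (Foxp1, Foxp2, Foxp4) are repressors with roles in lung epithelial development, and Foxp1 also acts in B cell and T cell development. In most tissues the CpG-rich starts of such developmental genes carry little methylation, while long gene bodies carry much.

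Of 44 autosomal Fox genes in the annotation of the same build (GENCODE M21, GRCm38), 39 had a window of their own name. Foxb2, Foxc2, Foxe1, Foxf1 and Foxl1 lay in windows that the table names for another gene and were not members. The number of windows per gene ranged from 145 for Foxp1, 105 for Foxn3 and 63 for Foxp2 to 1 each for Foxh1 and Foxs1. All 597 windows had a value in every library and were tested. In 102 of them a second annotated gene overlapped the window, of which 65 were Foxp1 windows shared with Gm20696, a gene model on the same strand.

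The sequences below were chosen from the called windows of Foxh1, Foxd2os and Foxo3, from the Foxp1 windows with the largest rise and the largest fall in PM offspring, and, as a CpG-dense contrast, from an exon of Foxa1, and each is read from GRCm38 with every CpG in capitals. The first gives the 250 bases before the Foxh1 gene start, on the strand of the gene. The others are the 200-base stretches with most CpGs in their window, given on the plus strand.
Foxh1 before the gene start, chr15:76669949-76670198, minus strand: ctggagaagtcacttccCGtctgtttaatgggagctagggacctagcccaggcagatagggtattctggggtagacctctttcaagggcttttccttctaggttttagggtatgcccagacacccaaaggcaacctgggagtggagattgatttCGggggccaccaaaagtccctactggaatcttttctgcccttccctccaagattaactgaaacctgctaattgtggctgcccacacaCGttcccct
Foxd2os window that gained methylation, chr4:114912817-114913016: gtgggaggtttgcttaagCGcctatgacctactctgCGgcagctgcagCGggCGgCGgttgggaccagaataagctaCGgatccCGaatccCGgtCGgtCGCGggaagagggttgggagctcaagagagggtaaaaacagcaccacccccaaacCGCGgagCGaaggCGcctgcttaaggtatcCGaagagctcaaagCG
Foxo3 window that gained methylation, chr10:42250449-42250648: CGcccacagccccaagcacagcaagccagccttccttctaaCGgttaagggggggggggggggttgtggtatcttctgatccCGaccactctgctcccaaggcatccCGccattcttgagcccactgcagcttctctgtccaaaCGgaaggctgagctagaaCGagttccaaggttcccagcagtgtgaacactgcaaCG
Foxp1 window that gained methylation, chr6:99019193-99019392: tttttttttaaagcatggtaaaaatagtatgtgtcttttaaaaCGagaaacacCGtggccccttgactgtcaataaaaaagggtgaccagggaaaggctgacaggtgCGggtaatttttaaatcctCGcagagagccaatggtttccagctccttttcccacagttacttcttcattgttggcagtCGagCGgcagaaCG
Foxp1 window that lost methylation, chr6:99337604-99337803: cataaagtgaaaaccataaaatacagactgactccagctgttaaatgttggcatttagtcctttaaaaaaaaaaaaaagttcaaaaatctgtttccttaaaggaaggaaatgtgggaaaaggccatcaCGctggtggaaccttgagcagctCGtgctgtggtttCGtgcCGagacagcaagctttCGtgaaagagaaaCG
Foxa1 coding exon window, chr12:57542883-57543082: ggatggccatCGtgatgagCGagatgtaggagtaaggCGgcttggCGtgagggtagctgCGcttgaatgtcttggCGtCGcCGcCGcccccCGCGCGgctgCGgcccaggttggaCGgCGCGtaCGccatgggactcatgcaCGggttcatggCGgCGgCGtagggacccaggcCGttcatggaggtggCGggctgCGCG
The Foxa1 stretch held 25 CpGs in 200 bases with a GC content of 69.0%. The Foxp1 stretches held 7 and 6 CpGs at 43.5% and 40.5% GC, the Foxo3 stretch 7 and the Foxd2os stretch 17, and the 250 bases before the Foxh1 start held 3. Of the stretches from called windows, only that of Foxd2os came near the CpG density of the Foxa1 exon.

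In unchallenged Sham lung the Fox windows held many unmethylated stretches. Of the 597 windows, 103 (17.3%) had a mean under 10%DNAm, against 7.12% of all tested autosomal windows. A further 50 windows lay between 10 and 50%DNAm, 228 between 50 and 80%DNAm and 216 at 80%DNAm or above. The 103 windows of low methylation came from 29 genes, were short (median 527 bp against 3603 bp for all Fox windows) and in 92.2% of cases held exonic bases. The spread between libraries was like that elsewhere, with a median within-group SD of 1.49 percentage points for Fox windows and 1.47 for all tested autosomal windows.

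**Figure D1:**
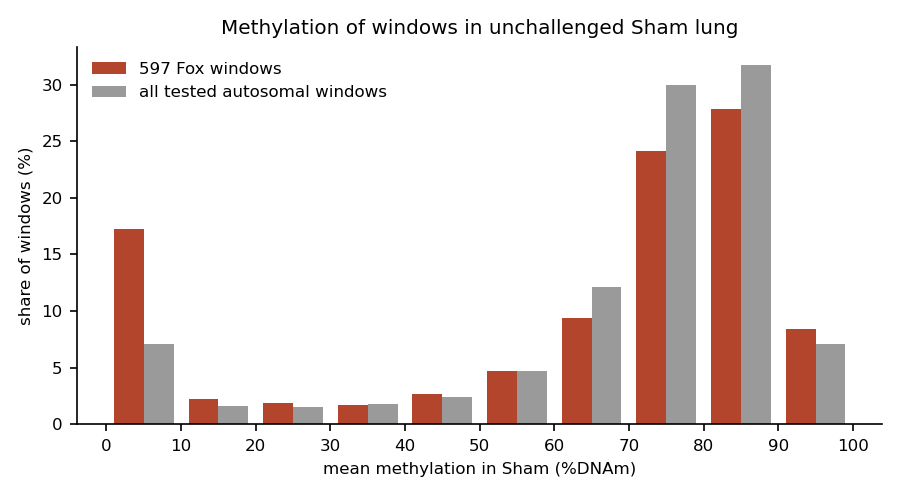
Share of windows (%) in each 10-point class of mean %DNAm in the 7 Sham libraries, for the 597 Fox windows and for all tested autosomal windows. The class under 10%DNAm held 17.3% of Fox windows and 7.12% of autosomal windows.

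The annotated start of a gene was covered by 30 windows, 1 gene each, and 20 of these 30 had a mean under 10%DNAm (median of the 30 windows 2.11%DNAm). The starts of Foxp1 (0.121%DNAm), Foxo3 (0.412%DNAm), Foxo1 (0.531%DNAm), Foxn3 (0.371%DNAm) and Foxk2 (0.218%DNAm) were all nearly unmethylated in Sham, and none of them passed the test after OVA in either kind of offspring. Starts at 70%DNAm or above were those of Foxi1 (80.9%DNAm), Foxr1 (80.9%DNAm), Foxn1 (76.4%DNAm, the thymic epithelial factor), Foxs1 (74.0%DNAm) and Foxo6os (70.3%DNAm). The starts of Foxi2 (48.5%DNAm), Foxh1 (34.9%DNAm), Foxd4 (29.1%DNAm), Foxe3 (11.8%DNAm) and Foxa3 (10.6%DNAm) lay between. Over the 30 starts, 5 were higher and 0 lower after OVA in Sham with an adjusted p under 0.05, and 7 were higher and 1 lower in PM. The higher shares, 16.7% in Sham and 23.3% in PM, stand against 13.3% and 9.26% of all tested windows. Of all tested autosomal windows under 10%DNAm, the class of 20 of the 30 starts, 18.8% and 16.6% were higher. The higher starts of Foxh1 in both arms, and of Foxe3 and Foxa3 in PM, lay above that class, so these shares are not of like sets. On untransformed percentages 3 of the 30 were higher in Sham and 5 in PM. Among the starts of low methylation that passed was that of Foxb1, a factor of the developing brain (3.36%DNAm in Sham), which rose by 2.88 points in Sham (adjusted p = 1.78e-05) and 1.42 in PM (adjusted p = 0.00979). The Foxd1 start (5.57%DNAm) rose by 1.36 points (adjusted p = 0.000301) and differed by 0.755 in PM (adjusted p = 0.0301), where it did not pass on untransformed percentages or without PM-OVA replicates 7 and 8. The 1 lower start was that of Foxi1 in PM (-4.27 points, adjusted p = 3.33e-05).

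Before the comparisons, 1 library stood apart. Of 1230 windows on the Y chromosome, 1224 had a value in the library labelled Sham replicate 1, whereas the other 28 libraries had values in 29 to 46, although all offspring are described as female. Counts of Fox windows for OVA in Sham are therefore also given without it. PM-OVA replicates 7 and 8 carry library names of another form than the rest, and counts of Fox windows for OVA in PM were repeated without them. The lists of other genes were not recounted in this way. Mean %DNAm over the 597 Fox windows was 61.3 ± 0.336 in the 7 Sham libraries (SD), 61.7 ± 0.495 in the 7 with OVA, 61.5 ± 0.383 in the 7 PM libraries and 61.4 ± 0.290 in the 8 with OVA, with overlapping ranges. The mean over Fox windows minus the mean over all tested autosomal windows did separate the challenged libraries, at -7.93 to -7.69 percentage points in Sham and -7.32 to -6.83 in Sham-OVA, and at -8.03 to -7.69 in PM and -7.31 to -6.74 in PM-OVA.

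The first question was which Fox windows changed with OVA challenge. A window was called a differentially methylated region (DMR) when limma's moderated test gave a Benjamini-Hochberg adjusted p under 0.05 over all 259167 tested windows and the group means differed by at least 10 percentage points. In Sham offspring 11 of 597 Fox windows (1.84%) were called, 8 higher and 3 lower after OVA, where 0.775% of all tested windows were called and 0.479% were called higher. In PM offspring 7 windows (1.17%) were called, 5 higher and 2 lower, with a background of 0.584% called and 0.263% called higher. All 7 were among the 11, and the 11 windows belonged to Foxp1, Foxd2os, Foxh1, Foxn3 and Foxo3. Foxp1, with 145 of the 597 windows, held 4 of the higher and 3 of the lower calls in Sham, and 2 and 2 in PM. Foxd2os, Foxh1, Foxn3 and Foxo3 held 1 call each in Sham. Most calls thus came from 1 gene, and the called shares do not describe the family at large. Without Sham replicate 1 the Sham count was 10, and without PM-OVA replicates 7 and 8 the PM count was 6.

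Most Fox changes were smaller than the 10-point minimum. With an adjusted p under 0.05 alone, 153 windows (25.6%) were higher and 120 (20.1%) lower after OVA in Sham, or 45.7% in all, where 13.3% of all tested windows were higher, 22.3% lower and 35.6% passed. Without Sham replicate 1 these were 139 and 113 windows. In PM offspring 129 windows (21.6%) were higher and 159 (26.6%) lower, 48.2% in all, against 9.26% higher, 34.8% lower and 44.1% passing over all windows. Without PM-OVA replicates 7 and 8 they were 106 and 149. The median difference was 0.282 percentage points over Fox windows and -0.414 over all tested windows in Sham, and 0.0172 and -1.03 in PM. Because the whole table moved down, the split depended on the centring of libraries. With each library centred on its median deviation, 189 Fox windows (31.7%) were higher and 99 (16.6%) lower in Sham, against 18.3% and 17.8% of all windows, and 205 (34.3%) were higher and 109 (18.3%) lower in PM, against 18.9% and 18.7%. Thus 65.3% of the passing Fox windows were higher in PM with centring, and 44.8% without it. The groups did not overlap at all in 80 Fox windows (13.4%) in Sham, against 8.58% of all windows, and in 84 (14.1%) in PM, against 12%, and 42 windows (7.04%) were free of overlap in both, against 4.24%.

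The OVA differences were much alike in both kinds of offspring, which share no library in these contrasts. The 215 windows that passed in both had the same sign in every case, 103 higher and 112 lower. Over all 597 windows the differences had the same sign in 512 (85.8%), where 81.8% of all tested autosomal windows did, and Pearson's r across windows was 0.941 (Spearman's rho 0.915), against an r of 0.890 over all tested autosomal windows. Neighbouring windows of a gene are not independent, and these values describe the windows of the same 29 libraries.

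**Figure D2:**
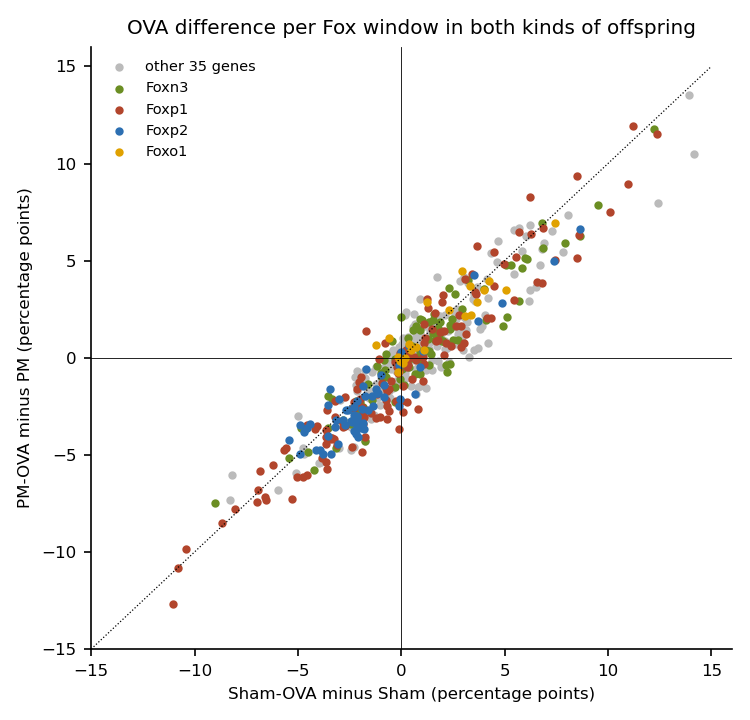
Difference in %DNAm after OVA (percentage points) of each of the 597 Fox windows in Sham offspring (horizontal) and PM offspring (vertical), with the windows of Foxn3, Foxp1, Foxp2 and Foxo1 in colour and equality as a dotted line. The points lie along the line (r = 0.941), with Foxp2 mostly below 0 and Foxo1 mostly above 0 on both axes.

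Methylation rose by over 10 percentage points at Foxh1, a partner of Smad proteins in Nodal and activin signalling in the embryo. Its only window (chr15:76668769-76671316) covers the gene start, and 1702 of its 2548 bp lie within 2000 bp upstream of an annotated gene start. Sham libraries ranged from 31.8 to 38.5%DNAm (median 35.3) and Sham-OVA libraries from 42.4 to 54.1 (median 48.9). PM libraries ranged from 26.9 to 38.5 (median 37.0) and PM-OVA libraries from 44.3 to 55.5 (median 47.6). Every challenged library was above every unchallenged library of its arm. The difference was 13.9 ± 1.75 percentage points in Sham (SE, adjusted p = 1.88e-06) and 13.5 ± 2.00 in PM (adjusted p = 1.05e-06).

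Foxd2os is a non-coding RNA gene next to Foxd2, and its called window (chr4:114911569-114913526) held 1357 exonic bases of 1958. Values were 40.7 to 47.7%DNAm (median 45.6) in Sham and 54.6 to 64.3 (median 61.2) in Sham-OVA, then 44.6 to 50.1 (median 48.8) in PM and 52.6 to 64.0 (median 59.3) in PM-OVA. Again no challenged library overlapped its unchallenged group. The rise was 14.1 ± 1.54 points in Sham (adjusted p = 4.25e-07) and 10.5 ± 1.78 in PM (adjusted p = 1.16e-05), which was under the 10-point minimum when any 1 of PM replicate 6 or PM-OVA replicates 2, 7 and 8 was left out (9.65 to 9.98 points). By contrast, 0 of the 5 windows of Foxd2 itself passed in Sham and 1 in PM, where it was higher.

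In Foxn3, a repressor linked to cell cycle checkpoints, the called window (chr12:99339084-99342405) lies 223 kb from the gene start, overlaps 3300002A11Rik and holds 2000 bases upstream of an annotated gene start. Sham libraries held 52.6 to 56.3%DNAm (median 54.2) and Sham-OVA libraries 62.7 to 72.3 (median 65.3), with 50.9 to 61.2 (median 55.4) in PM and 64.2 to 71.7 (median 67.8) in PM-OVA. The groups did not overlap in either arm. Methylation rose by 12.2 points in Sham (SE 1.501, adjusted p = 1.24e-06) and 11.8 ± 1.62 in PM (adjusted p = 8.19e-07).

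Foxo3, a FoxO factor with roles in lymphocyte quiescence and oxidative stress, had 1 called window (chr10:42247714-42251719), mostly intronic and 27.0 kb into the gene. The Sham libraries lay at 43.5 to 52.4%DNAm (median 46.2) and the Sham-OVA libraries at 54.5 to 65.3 (median 58.8). PM libraries lay at 46.1 to 57.2 (median 50.6) and PM-OVA libraries at 55.3 to 60.6 (median 59.1). The groups were apart in Sham and overlapped in PM. The rise was 12.4 ± 1.97 points in Sham (adjusted p = 2.68e-06), and in PM it was 7.98 ± 1.55 (adjusted p = 0.000315), under the 10-point minimum. The smallest unadjusted interaction p of the 11 called windows was 0.0695 (adjusted p = 0.696), so no difference between the arms was detected in them.

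**Figure D3:**
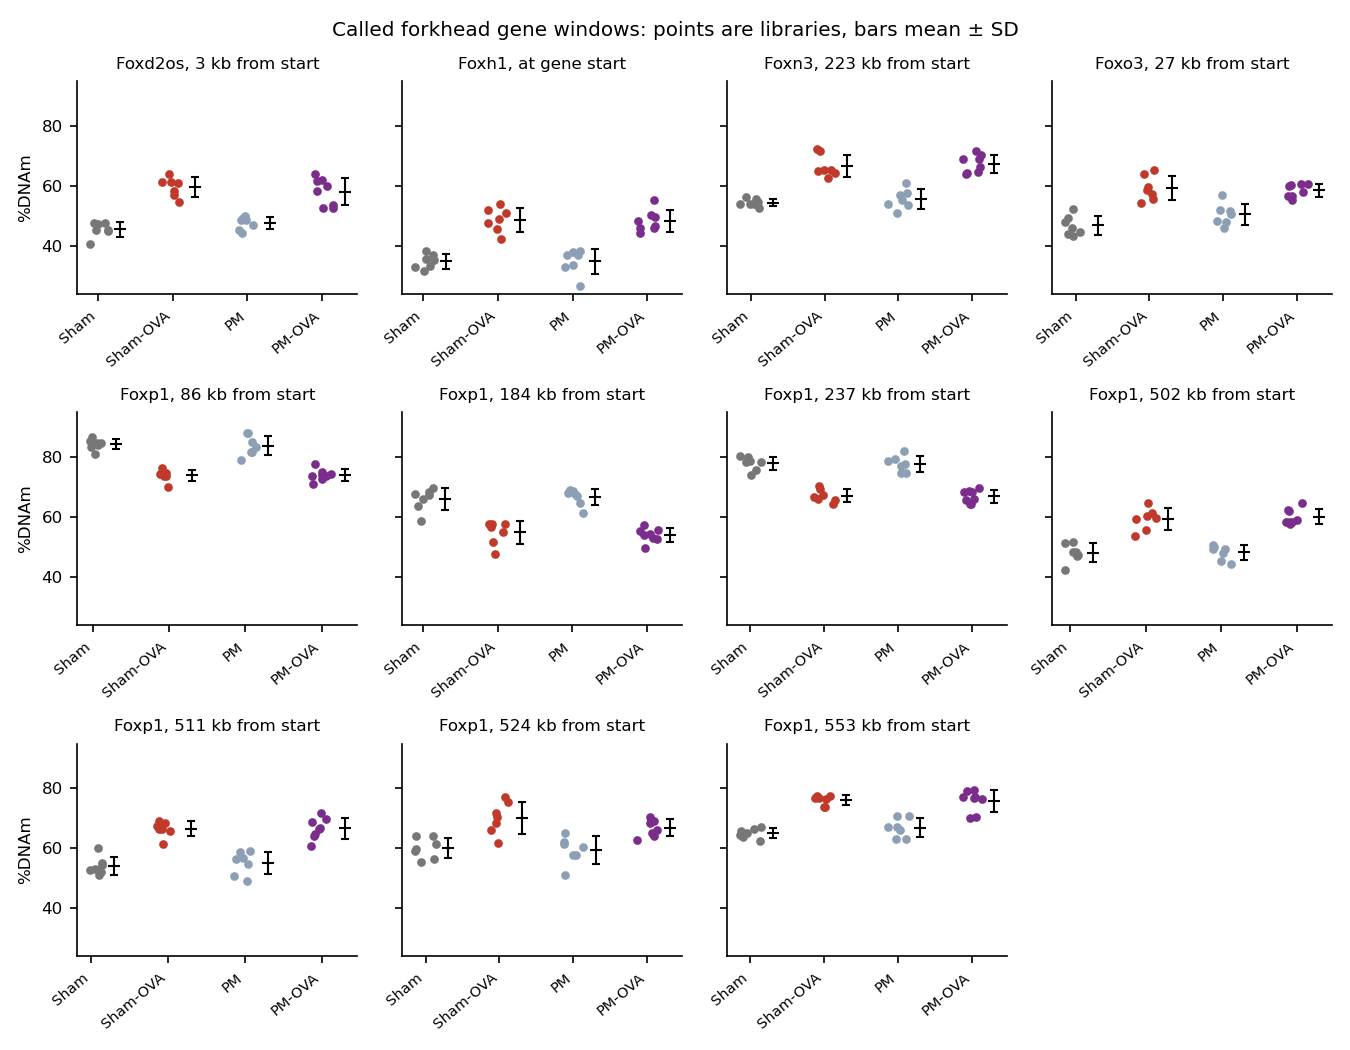
%DNAm of the 11 called windows in every library (points) with the group mean ± SD (bars), titled by gene and distance of the window from the gene start. Foxh1, Foxd2os, Foxn3 and Foxo3 are higher in the OVA groups, and the Foxp1 windows are lower after OVA at 86 to 237 kb and higher at 502 to 553 kb.

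Foxp1 held the other 7 called windows and was described along its length of 597384 bp. The gene lies on the minus strand of chromosome 6, and distances are from its annotated start. Of the 7, 3 in the first part of the gene lost methylation and 4 near its 3′ end gained it. All of the losing windows also overlap Gm20696, so that with windows of 1 annotated gene alone the called losses are 0.

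The losing window at 184 kb (chr6:99336511-99341885) is intronic. Sham libraries held 58.9 to 69.9%DNAm (median 67.5) and Sham-OVA libraries 47.8 to 57.9 (median 56.9), and PM libraries held 61.5 to 69.2 (median 67.7) and PM-OVA libraries 49.7 to 57.6 (median 54.2). No library overlapped the other group of its arm. Methylation fell by 11.0 ± 2.02 points in Sham (adjusted p = 7.55e-06) and by 12.7 ± 1.33 in PM (adjusted p = 4.61e-07), and the Sham value was -9.83 without Sham-OVA replicate 6.

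At 237 kb (chr6:99282417-99288114, intronic) Sham libraries had 74.1 to 80.3%DNAm (median 78.6) against 64.5 to 70.5 (median 66.9) in Sham-OVA, and PM libraries 74.7 to 82.0 (median 77.8) against 64.5 to 69.7 (median 67.2) in PM-OVA. This fall, of 10.8 ± 1.17 points in Sham (adjusted p = 1.62e-07) and 10.8 ± 1.23 in PM (adjusted p = 5.77e-08), also left no overlap. At 85.8 kb (chr6:99434669-99439132, with 751 exonic bases) the values were 81.3 to 86.9 (median 84.7) in Sham, 70.2 to 76.4 (median 74.5) in Sham-OVA, 79.2 to 88.1 (median 83.6) in PM and 71.1 to 77.8 (median 74.0) in PM-OVA. Here too the groups were apart, with a difference of -10.4 ± 0.973 points in Sham (adjusted p = 5.38e-07) and a difference of -9.87 ± 1.42 in PM (adjusted p = 3.78e-07). The PM value passed the 10-point minimum when PM replicate 1, 4 or 6 or PM-OVA replicate 3 or 6 was left out (-10.0 to -10.7), and the Sham value was -9.78 without Sham-OVA replicate 2.

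Near the 3′ end, the window at 511 kb (chr6:99009592-99013194, 154 exonic bases) held 51.2 to 60.1%DNAm (median 53.1) in Sham, 61.5 to 69.2 (median 66.6) in Sham-OVA, 49.3 to 59.0 (median 56.6) in PM and 60.9 to 71.8 (median 66.5) in PM-OVA. The rise was 12.4 ± 1.47 points in Sham (adjusted p = 2.27e-06) and 11.5 ± 1.89 in PM (adjusted p = 2.29e-06), without overlap. At 502 kb (chr6:99018831-99023407, intronic) it was 11.2 ± 1.82 in Sham (adjusted p = 3.15e-06) and 11.9 ± 1.29 in PM (adjusted p = 5.25e-07), from 42.4 to 51.7 (median 48.4) in Sham to 53.7 to 64.7 (median 59.7) in Sham-OVA, and from 44.4 to 50.9 (median 49.3) in PM to 57.7 to 64.8 (median 58.9) in PM-OVA. No overlap was left in either arm. The remaining 2 were called in Sham alone. At 553 kb (chr6:98967151-98971717, intronic) Sham libraries held 62.6 to 67.3 (median 65.2) and Sham-OVA 73.6 to 77.5 (median 76.8), apart, while PM held 63.2 to 70.8 (median 67.1) and PM-OVA 70.1 to 79.5 (median 76.8), which overlapped. The differences were 11.0 ± 0.870 (adjusted p = 1.10e-06) and 8.94 ± 1.73 (adjusted p = 5.89e-06). At 524 kb (chr6:98998196-99000183, intronic) the groups overlapped in both arms, the differences were 10.1 ± 2.37 (adjusted p = 0.000326) and 7.48 ± 1.98 (adjusted p = 0.00432), and the Sham value was under the minimum when Sham replicate 1, 2 or 3 or Sham-OVA replicate 1, 2 or 6 was left out (8.93 to 9.93 points).

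The balance of gains and losses varied along Foxp1. In the first 100 kb, 3 of 28 windows were higher and 8 lower in Sham and 1 and 14 in PM, and between 100 and 200 kb 1 of 21 was higher and 12 lower in Sham and 0 and 16 in PM. Between 200 and 300 kb, 0 of 22 windows were higher and 13 were lower in Sham, and 0 were higher and 18 lower in PM, with median differences of -3.04 and -3.84 points. The mean over these windows was 79.6 ± 0.250%DNAm in Sham (range 79.3 to 80.1), 75.7 ± 0.887 in Sham-OVA (74.6 to 76.9), 79.7 ± 0.404 in PM (79.3 to 80.4) and 75.2 ± 0.569 in PM-OVA (74.2 to 76.0). Between 500 and 600 kb, 22 of 30 windows were higher and 1 lower in Sham, and 20 were higher and 1 lower in PM, with medians of 4.40 and 3.86 points. There the means were 74.7 ± 0.863 in Sham (73.9 to 76.4), 79.2 ± 1.05 in Sham-OVA (77.2 to 80.2), 74.7 ± 1.66 in PM (71.3 to 76.1) and 78.8 ± 1.01 in PM-OVA (77.4 to 80.2). The stretches between them were mixed, with 5 of 21 windows higher and 7 lower at 300 to 400 kb in Sham (2 and 10 in PM) and 4 of 23 higher and 4 lower at 400 to 500 kb (8 and 5 in PM). At 200 to 300 and 500 to 600 kb the challenged libraries were apart from the unchallenged ones, and the counts with centred libraries kept the directions (0 higher and 12 lower, then 22 higher and 1 lower in Sham, and 0 and 15, then 23 and 1 in PM).

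Windows next to each other in Foxp1 had related differences, with r across 144 neighbouring pairs of 0.515 in Sham and 0.639 in PM, against 0.319 and 0.340 over 104 pairs in Foxn3 and 0.0671 and 0.0909 over 62 pairs in Foxp2. Over the whole of Foxp1, 35 windows were higher and 45 lower in Sham and 31 and 64 in PM. This balance moved to 43 and 41, and to 44 and 46, with centred libraries. Of the 65 windows shared with Gm20696, 4 were higher and 30 lower in Sham and 1 and 42 in PM, and of the other 80 windows 31 were higher and 15 lower in Sham and 30 and 22 in PM. The smallest mean rank of p over both contrasts in the gene was that of an intronic window at 281 kb (chr6:99238267-99245127). It held 85.7 to 89.5%DNAm (median 87.1) in Sham and 79.3 to 83.9 (median 79.7) in Sham-OVA, and 86.4 to 89.5 (median 88.6) in PM and 77.9 to 82.7 (median 81.5) in PM-OVA. The groups were apart, with a fall of 6.52 ± 0.833 points in Sham (adjusted p = 2.24e-07) and 7.31 ± 0.666 in PM (adjusted p = 8.21e-09).

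**Figure D4:**
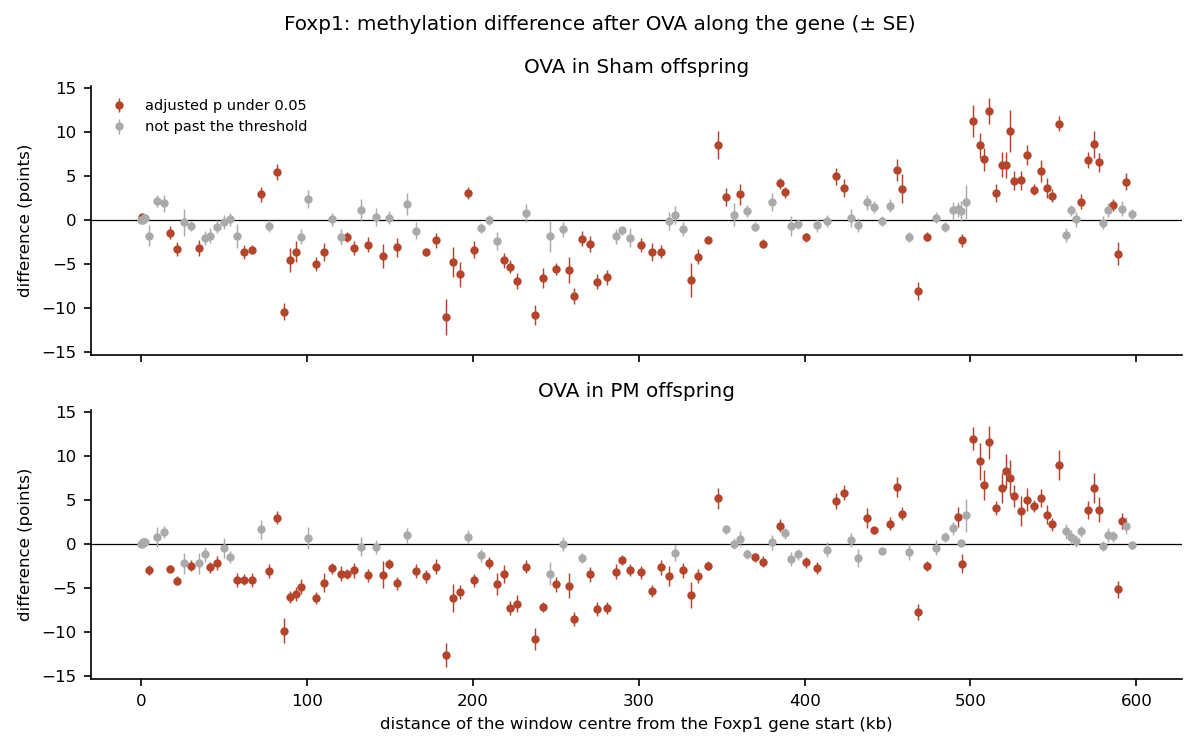
Difference in %DNAm after OVA (percentage points, ± SE) of the 145 Foxp1 windows by distance from the gene start (kb), in Sham offspring (upper) and PM offspring (lower), with windows of adjusted p under 0.05 in red. Between 200 and 300 kb passing windows lie below 0, and between 500 and 600 kb all but 1 of the passing windows lie above 0, in both panels.

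Most of the passing windows of Foxp2 were lower and all of those of Foxp4 were higher after OVA. Over the 230 windows of Foxp1, Foxp2 and Foxp4, 20.4% were higher and 35.7% lower in Sham, and 18.7% and 46.1% in PM. All tested windows gave 13.3% and 22.3% in Sham, and 9.26% and 34.8% in PM. Foxp2 (63 windows) had 5 windows higher and 37 lower in Sham, and 5 higher and 42 lower in PM, with median differences of -2.15 and -2.70 points, and with centred libraries 5 and 29, and 6 and 29. Losses were spread over every 100-kb stretch of the gene, from 5 of 11 to 8 of 11 windows in Sham over the stretches with 10 or more windows. The gene mean was 73.8 to 75.6%DNAm in Sham (median 74.9), 72.3 to 74.3 in Sham-OVA (median 73.3), 73.8 to 76.1 in PM (median 75.2) and 72.4 to 73.9 in PM-OVA (median 72.7). These ranges overlapped. Against this, a window 284 kb from the start (chr6:15183615-15187310, with 837 untranslated exonic bases of 3696) rose from 17.4 to 22.3 (median 21.2) in Sham to 26.3 to 35.8 (median 29.1) in Sham-OVA, and from 18.8 to 23.6 (median 20.3) in PM to 25.0 to 30.6 (median 27.4) in PM-OVA. The groups did not overlap, and the differences were 8.66 ± 1.40 (adjusted p = 9.93e-07) and 6.61 ± 0.876 (adjusted p = 1.21e-05). Foxp4 (22 windows) had 7 higher and 0 lower in both arms, or 9 and 12 higher with 0 lower with centred libraries, and its gene mean went from 57.5 ± 0.836%DNAm in Sham to 59.7 ± 0.770 in Sham-OVA and from 57.5 ± 0.598 in PM to 59.2 ± 0.837 in PM-OVA.

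**Figure D5:**
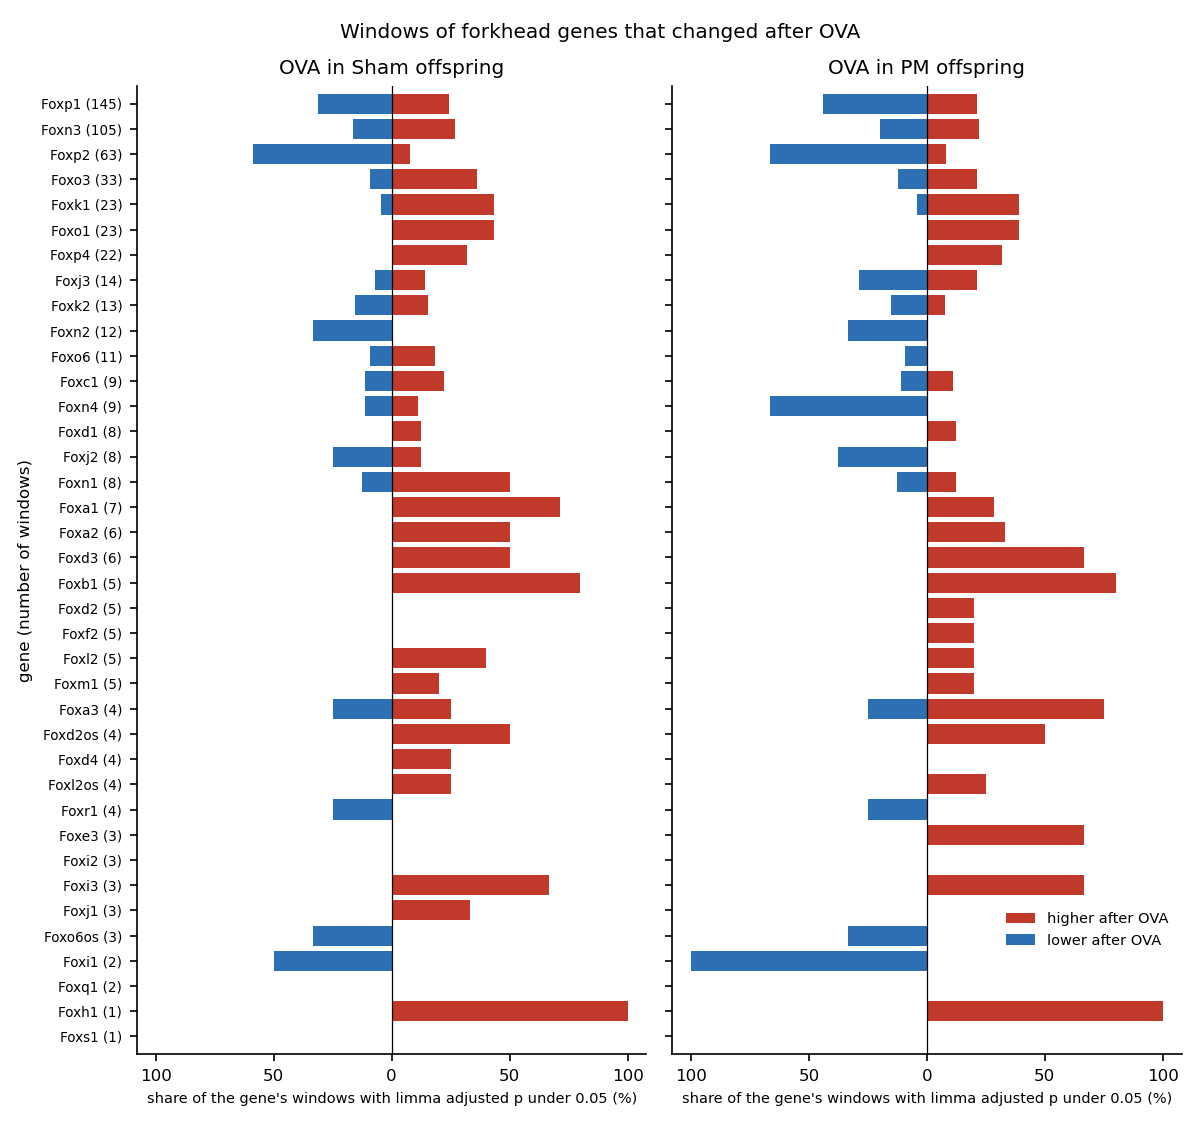
Share (%) of the windows of Fox genes that were higher (right, red) or lower (left, blue) after OVA with an adjusted p under 0.05, in Sham and PM offspring, with the number of windows of each gene in parentheses. Foxo1 and Foxp4 have windows to the right alone in both panels, and Foxp2 lies mostly to the left.

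Passing windows of FoxO genes were more often higher than lower after OVA. Of 67 windows of Foxo1, Foxo3 and Foxo6, 24 were higher and 4 lower in Sham, and 16 were higher and 5 lower in PM. The shares were 35.8% and 5.97% in Sham, against 13.3% and 22.3% of all tested windows. In PM they were 23.9% and 7.46%, against 9.26% and 34.8%. With centred libraries the counts were 30 and 2 in Sham and 31 and 2 in PM. Foxo1, a regulator of lymphocyte homing and survival, had 10 of 23 windows higher and 0 lower in Sham and 9 higher and 0 lower in PM (12 and 15 higher with centring). Its mean over windows was 56.9 to 57.8%DNAm in Sham (median 57.7) and 58.4 to 60.1 in Sham-OVA (median 59.4), and 55.6 to 58.3 in PM (median 57.5) and 58.5 to 60.4 in PM-OVA (median 59.0). The groups were apart in both arms. The Foxo1 window with the smallest mean rank of p lies wholly in untranslated exon (chr3:52347492-52351196), 81.0 kb from the start. It held 60.9 to 66.6 (median 61.9) in Sham and 66.8 to 74.7 (median 70.8) in Sham-OVA, and 62.2 to 65.4 (median 63.1) in PM and 66.6 to 74.1 (median 70.4) in PM-OVA. These did not overlap, and the rise was 7.45 ± 1.34 points (adjusted p = 2.10e-05) and 6.93 ± 0.964 (adjusted p = 2.54e-05). Foxo3 had 12 of 33 windows higher and 3 lower in Sham, and 7 higher and 4 lower in PM, or 15 and 2, and 14 and 2, with centring. Foxo6 had 2 higher and 1 lower of 11 in Sham, and 0 and 1 in PM, which became 3 and 0, and 2 and 0, with centred libraries. On untransformed percentages it had 0 higher and 1 lower in both arms, and without Sham replicate 1 it had 1 and 1 in Sham.

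Foxa1 and Foxa2 were low in methylation, and their means over windows differed by few points between groups. Foxa1 had a mean over its 7 windows of 3.25 to 3.71%DNAm in Sham (median 3.55) and 4.25 to 5.22 in Sham-OVA (median 4.54), and of 2.98 to 3.91 in PM (median 3.76) and 4.21 to 4.79 in PM-OVA (median 4.43). The groups were apart in both arms although the difference of means was 1.17 and 0.878 points. In Foxa1, 5 windows were higher in Sham and 2 in PM, with 0 lower, and 2 rather than 5 passed in Sham on untransformed percentages. Its coding window (chr12:57542564-57543104, from which the CpG-dense stretch above is taken) rose from 3.17 to 5.12 (median 4.14) to 6.34 to 9.58 (median 7.97) in Sham, and from 2.93 to 5.06 (median 3.95) to 6.17 to 9.49 (median 7.46) in PM. There was no overlap, with differences of 4.02 ± 0.542 points (adjusted p = 8.53e-07) and 3.52 ± 0.519 (adjusted p = 1.15e-06).

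Foxa2, which acts in alveolar maturation and limits goblet cell differentiation, had 3 of 6 windows higher in Sham and 2 in PM, with 0 lower. Its means were 5.84 to 6.81%DNAm in Sham (median 6.14), 6.29 to 8.77 in Sham-OVA (median 8.19), 5.09 to 7.23 in PM (median 6.40) and 7.09 to 7.75 in PM-OVA (median 7.40), with overlap in both arms. The window next to that over its start (chr2:148046241-148046942) went from 1.14 to 2.90 (median 1.39) to 2.34 to 4.23 (median 4.04) in Sham, and from 0.695 to 2.73 (median 1.89) to 2.21 to 4.26 (median 2.98) in PM. The differences were 1.93 ± 0.387 points (adjusted p = 0.000219) and 1.36 ± 0.364 (adjusted p = 0.00318), and the groups overlapped. Foxa3, a liver and gut factor, had a higher mean of 53.5%DNAm in Sham over its 4 windows (10.6 to 83.8), with 1 window higher and 1 lower in Sham, and 3 and 1 in PM.

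Among the cilia and ionocyte factors, Foxj1 had 3 windows, none of which covers its start. One was higher in Sham and 0 passed in PM. That window (chr11:116329938-116332611, 1774 exonic bases) held 69.8 to 74.2%DNAm (median 71.5) in Sham, 68.6 to 79.1 (median 77.6) in Sham-OVA, 71.7 to 75.6 (median 74.8) in PM and 71.3 to 78.7 (median 74.9) in PM-OVA. All groups overlapped, with differences of 4.21 ± 1.55 (adjusted p = 0.00825) and 0.762 ± 0.948 (adjusted p = 0.615). The Foxj1 mean was 34.6 to 37.5 in Sham (median 36.2), 34.1 to 40.2 in Sham-OVA (median 39.1), 36.3 to 38.0 in PM (median 37.2) and 36.1 to 38.7 in PM-OVA (median 38.0), also overlapping. Foxn4 had 1 higher and 1 lower of 9 windows in Sham and 6 lower in PM, of which 2 were lower with centred libraries. The 2 Foxi1 windows were both lower in PM and 1 of them in Sham, where neither passed with centring.

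Mesenchyme and vessel factors with windows here were Foxf2, Foxc1, Foxd1 and Foxs1. Of their 23 windows, 3 were higher and 1 lower in Sham, and 3 higher and 1 lower in PM, or 4 and 1, and 6 and 1, with centred libraries. On untransformed percentages these were 2 and 2 in Sham and 0 and 1 in PM. The share of higher windows was 13.0% in both arms, near the 13.3% of all tested windows in Sham and above the 9.26% in PM. The share of lower windows, 4.35% in both arms, was under the 22.3% and 34.8% of all tested windows. The lower window lay in Foxc1 (chr13:31808725-31811040, almost all untranslated exon), where Sham held 19.9 to 25.6%DNAm (median 21.1) and Sham-OVA 14.5 to 19.4 (median 18.4), and PM held 18.8 to 24.4 (median 21.3) and PM-OVA 14.8 to 18.9 (median 15.9). The groups were apart in Sham and just overlapped in PM. The fall was 3.88 ± 0.970 points in Sham (adjusted p = 0.00151) and 5.36 ± 0.868 in PM (adjusted p = 1.60e-05).

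Of 182 windows of broadly expressed factors (Foxj2, Foxj3, Foxk1, Foxk2, Foxm1, Foxn2, Foxn3, Foxq1), 44 were higher and 27 lower in Sham, and 37 higher and 35 lower in PM. The shares were 24.2% and 14.8% in Sham, against 13.3% and 22.3% of all tested windows. In PM they were 20.3% and 19.2%, against 9.26% and 34.8%. With centred libraries the split was 57 and 23 in Sham and 65 and 25 in PM. Foxk1, a regulator of metabolism and autophagy, had 10 of 23 higher and 1 lower in Sham, and 9 and 1 in PM. Foxn3 (105 windows) had 28 higher and 17 lower in Sham, and 23 and 21 in PM, which became 38 and 15 in both arms with centred libraries. In Foxn2, 4 of 12 windows were lower and 0 higher in both arms, and with centring 3 were lower and 1 higher in Sham and 4 and 1 in PM. One of them (chr17:88477277-88482195) fell by 8.28 ± 1.63 points in Sham (adjusted p = 3.07e-05) and 7.31 ± 1.24 in PM (adjusted p = 7.95e-05). The proliferation factor Foxm1 had 1 of 5 windows higher in each arm.

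Passing windows of genes known mainly from other organs were mostly higher after OVA. Of their 53 windows, which include those of Foxb1, Foxd2, Foxd3, Foxe3, Foxh1, Foxl2 and Foxn1, 21 were higher and 2 lower in Sham, and 20 higher and 2 lower in PM. The shares were 39.6% and 3.77% in Sham, against 13.3% and 22.3% of all tested windows. In PM they were 37.7% and 3.77%, against 9.26% and 34.8%. With centred libraries the counts were 25 and 0 in Sham and 26 and 1 in PM, and on untransformed percentages 17 and 2, and 16 and 2. Foxb1 had 4 of 5 windows higher and 0 lower in both arms, and Foxd3, a neural crest factor, 3 of 6 in Sham and 4 of 6 in PM with 0 lower. Over the 103 Fox windows under 10%DNAm in Sham, 29 (28.2%) were higher and 1 lower in Sham, against 18.8% and 2.72% of all tested autosomal windows of that class, and 24 (23.3%) were higher and 1 lower in PM, against 16.6% higher in that class. On untransformed percentages 17 and 16 of the 103 were higher, and with centred libraries 34 and 38. More of the higher windows lay between 50 and 80%DNAm, with 88 in Sham (38.6%) and 74 in PM (32.5%). Of all tested autosomal windows of that class 16.3% and 10.9% were higher. Between 10 and 50%DNAm 24% of Fox windows were higher in Sham and 28% in PM, against 26.1% and 21.5%. At 80%DNAm or above 11.1% and 7.87% were higher, against 7.12% and 4.33%.

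By gene, 14 of the 39 had passing windows in both arms that were all higher, among them Foxa1, Foxa2, Foxb1, Foxd1, Foxd3, Foxh1, Foxm1, Foxo1 and Foxp4, and centring, which raises the differences, left this as it was. On untransformed percentages 4 of the 14 (Foxd1, Foxi3, Foxl2, Foxl2os) no longer met it, and 2 (Foxd1, Foxl2) with 5 points added before the transform. The passing windows were all lower in both arms in 4 genes (Foxi1, Foxn2, Foxo6os, Foxr1), and none of the 4 met this with centring, while all did on untransformed percentages. No window of Foxi2, Foxq1 or Foxs1 passed in either arm, although the Foxs1 window (3.54 points in Sham, adjusted p = 0.0542) did so in Sham with 5 points added before the transform and with centred libraries, and the other genes were mixed or passed in 1 arm. Of the 20 genes with the largest mean change in a window that passed in both arms with the same sign, 14 rose and 6 fell at that window. Beyond those above, these included Foxk1 (chr5:142455956-142457918, 8.09 and 7.34 points in Sham and PM), Foxa3 (chr7:19020041-19022976, 7.32 and 6.52), Foxp4 (chr17:47904482-47908065, 6.22 and 6.85), Foxb1 (chr9:69753563-69758480, 4.21 and 3.08) and Foxn1 (chr11:78356860-78359719, 4.14 and 4.04), which rose. They also included Foxj2 (chr6:122837743-122840493, -4.74 and -4.63), Foxn4 (chr5:114258488-114260894, -4.68 and -4.93), Foxr1 (chr9:44434391-44438115, -3.01 and -4.65) and Foxi1 (chr11:34200147-34206428, -2.28 and -4.59), which fell. Their adjusted p ranged from 2.07e-05 (Foxj2, in PM) to 0.0375 (Foxi1, in Sham).

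Without Sham replicate 1, the windows higher and lower after OVA in Sham were 8 and 1 for FoxA genes, 2 and 3 for cilia and ionocyte factors, 3 and 2 for mesenchyme and vessel factors, and 18 and 4 for FoxO genes. They were 46 and 74 for FoxP genes, 41 and 28 for broadly expressed factors and 18 and 0 for factors of other organs. Without PM-OVA replicates 7 and 8, the windows higher and lower after OVA in PM were 6 and 1, 0 and 6, 2 and 1, and 13 and 4 for the first 4 of these families, and 35 and 103, 29 and 31, and 18 and 2 for the others. The counts of broadly expressed factors in PM thus went from 37 higher and 35 lower to 29 and 31. With every library kept, 9.26% of all tested windows were higher and 34.8% lower in PM. In Foxp1 the 500 to 600 kb stretch had 20 higher and 1 lower in Sham and 18 and 1 in PM without these libraries, and the 200 to 300 kb stretch had 0 and 13, and 0 and 18. Over the 30 gene starts, 4 were higher and 0 lower in Sham and 4 and 1 in PM. Of windows under 10%DNAm, 25 were higher and 1 lower in Sham and 20 and 0 in PM. By gene, Foxn1 had 2 higher and 0 lower in Sham, and no Foxr1 window passed in Sham. Foxd1 had 1 higher and 1 lower window in Sham and no passing window in PM, so it no longer had higher windows alone in both arms.

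The second question was whether maternal PM2.5 exposure left a mark on Fox windows. No Fox window was called and none had an adjusted p under 0.05 with limma for PM minus Sham without OVA, for PM-OVA minus Sham-OVA, or for the interaction, where 0% of all tested windows were called as well. At an unadjusted p under 0.05 there were 39 windows (6.53%) without OVA, 28 (4.69%) with OVA and 37 (6.20%) for the interaction, against 5.79%, 5.96% and 7.4% of all windows. Fox windows thus passed the unadjusted threshold about as often as the rest of the table.

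The smallest p in these comparisons came from 3 windows whose groups differed by few points. Without OVA it was the window over the Foxn4 start (chr5:114273795-114274422), with 0.683 to 1.11%DNAm (median 0.977) in Sham and 0.953 to 2.75 (median 1.53) in PM, a difference of 0.715 points (unadjusted p = 0.00382, adjusted p = 0.808). With OVA it was a Foxo6os window (chr4:120290659-120295777), with 69.0 to 73.2 (median 71.7) in Sham-OVA and 66.5 to 70.2 (median 68.8) in PM-OVA, a difference of -2.96 (unadjusted p = 0.000457, adjusted p = 0.786). For the interaction it was a Foxj2 window (chr6:122826578-122829775), where the OVA difference was 0.695 in Sham and -1.85 in PM (unadjusted p = 0.00301, adjusted p = 0.556). The groups overlapped in each case. The range of PM minus Sham differences without OVA over the 597 windows was -2.77 to 3.71 points, and after OVA it was -3.36 to 2.60.

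Genes around the Fox factors were counted from lists by role. Of 333 windows of 16 genes that regulate FoxO factors (PI3K, Akt, insulin receptor and acetyltransferase genes), 96 were higher and 51 lower in Sham, and 64 higher and 78 lower in PM, or 118 and 41, and 103 and 50, with centred libraries. The shares before centring were 28.8% higher and 15.3% lower in Sham and 19.2% and 23.4% in PM. All tested windows gave 13.3% and 22.3% in Sham, and 9.26% and 34.8% in PM. Over all tested windows, 0.775% were called in Sham and 0.584% in PM. Called windows of the 333 were 8 higher and 1 lower in Sham and 3 and 1 in PM. They included Sgk1, a kinase that phosphorylates FoxO factors, whose most changed window went from 49.95 ± 2.25%DNAm to 66.2 ± 1.98 in Sham and from 54.2 ± 3.41 to 66.5 ± 4.07 in PM. Akt1 went from 47.4 ± 2.25 to 61.4 ± 4.62 and from 48.6 ± 2.07 to 59.4 ± 2.49, and Pik3cd, the leucocyte PI3K catalytic subunit, from 30.6 ± 3.51 to 46.9 ± 5.45 and from 26.4 ± 2.18 to 46.8 ± 4.09 in 1 window. Another Pik3cd window held the called loss in Sham, from 68.5 ± 4.82 to 55.4 ± 3.69, and went from 68.3 ± 2.96 to 58.3 ± 5.48 in PM (-9.96 points, not called). Igf1r fell in 1 window, from 83.2 ± 1.07 to 73.7 ± 2.24 (9.49 points, not called) and from 82.6 ± 0.683 to 72.5 ± 1.20 (called).

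Of 86 windows of 13 FoxO target genes, 16 were higher and 13 lower in Sham, and 11 and 16 in PM (18 and 9, and 25 and 12, with centring), or 18.6% and 15.1% in Sham and 12.8% and 18.6% in PM. All tested windows gave 13.3% and 22.3% in Sham, and 9.26% and 34.8% in PM, so the share of lower target windows was under that of the table in both arms. Partners and targets of FoxA and FoxJ1 in the lung epithelium (198 windows of 16 genes, with no window named Dnai1) had 22 higher and 43 lower in Sham, and 17 and 89 in PM, with 0 called, and 32 and 28, and 30 and 36, with centring. In Sham these shares, 11.1% higher and 21.7% lower, were near those of all tested windows (13.3% and 22.3%), and in PM they were 8.59% and 44.9% against 9.26% and 34.8%. The genes Sftpb, Sftpc, Scgb1a1 and Nkx2-1 of that list are also lung epithelial markers below.

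Markers of cell types in the homogenate moved with OVA as well. Over all tested windows, 0.775% were called in Sham and 0.584% in PM. Leucocyte markers (61 windows of Ptprc, Itgal, Itgb2, Coro1a, Laptm5, Fermt3 and Vav1) had 10 windows called lower in Sham and 11 in PM, with 0 called higher, and a window of Ptprc, which encodes CD45, went from 69.3 ± 1.36%DNAm to 50.2 ± 3.44 in Sham and from 68.1 ± 1.75 to 51.6 ± 2.70 in PM. Without the minimum, 24 were higher and 20 lower in Sham, and 20 and 24 in PM, with a mean level over the windows of 70.7 to 72.3 in Sham, 69.0 to 70.5 in Sham-OVA, 71.5 to 72.4 in PM and 69.5 to 70.1 in PM-OVA. T cell markers (82 windows of 10 genes) had 13 higher and 30 lower in Sham and 9 and 32 in PM, and 1 Cd2 window was called lower in both arms. Their means were 69.4 to 70.7 in Sham, 67.8 to 69.5 in Sham-OVA, 69.6 to 71.0 in PM and 68.2 to 69.6 in PM-OVA. B cell markers (63 windows of 5 genes, with none named Ms4a1) had 17 higher and 15 lower in Sham and 13 and 20 in PM, with 2 Cd79b windows called lower and 1 Pax5 window called higher in both arms. Their means were 62.3 to 63.2, 61.7 to 63.4, 62.6 to 63.9 and 61.2 to 62.7 in the same order.

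Lung epithelial markers (36 windows of 9 genes) had 13 windows higher and 1 lower in Sham, and 6 and 1 in PM, with 1 Krt8 window called higher in Sham, and means of 52.6 to 54.7%DNAm in Sham, 54.4 to 55.8 in Sham-OVA, 53.3 to 54.6 in PM and 53.7 to 55.1 in PM-OVA. Endothelial markers (130 windows of 6 genes) had 41 higher and 25 lower in Sham and 36 and 37 in PM, of which 2 higher and 1 lower were called in Sham and 1 and 1 in PM. One Pecam1 window, in the gene of CD31, differed by -18.0 points in Sham and -15.9 in PM and another by 12.5 and 11.6. The list had means of 69.1 to 71.3, 70.1 to 72.4, 69.0 to 72.0 and 70.1 to 72.0 in the same order. With centred libraries, the higher and lower windows were 28 and 20, and 27 and 20, for leucocytes, 15 and 23, and 15 and 18, for T cells, 24 and 14, and 24 and 13, for B cells, 18 and 1, and 13 and 0, for lung epithelium, and 47 and 23, and 47 and 26, for endothelium. Before centring, the shares higher and lower in Sham were 39.3% and 32.8% for leucocytes, 15.9% and 36.6% for T cells, 27.0% and 23.8% for B cells, 36.1% and 2.78% for lung epithelium and 31.5% and 19.2% for endothelium, where all tested windows gave 13.3% and 22.3%. In PM they were 32.8% and 39.3% for leucocytes, 11.0% and 39.0% for T cells and 20.6% and 31.7% for B cells. Lung epithelium had 16.7% and 2.78% in PM, and endothelium 27.7% and 28.5%. All tested windows gave 9.26% and 34.8% in PM, near the T cell shares. The part of these cell types in the changes of the Fox windows was not tested.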

How the data were processed

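WGMS was performed by the authors on lung DNA (enzymatic conversion with an unmethylated lambda spike). The authors, per the labels and their methods, trimmed reads with Trim Galore, mapped them and called methylation with DRAGEN against GRCm38, and summarised calls in SeqMonk over windows of 100 CpG cytosines with at least 10 informative CpGs. The deposited values are percent methylation, averaged by the authors over the bases of a window, with no read counts or coverage. The authors named each window for 1 overlapping gene. The study describes high coverage per library, but the depth of each window is unknown, so no counting error is given, and the number of libraries limits the precision.

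Windows with at least 3 values in every group (259167) were tested. Percentages were transformed to log2((percent + 1)/(100 - percent + 1)), and a model of the 4 groups over all 29 libraries was fitted with limma 3.58.1 in R 4.3.3 and the data.table package (version 1.17.8). P-values were 2-sided and were adjusted over the tested windows by the Benjamini-Hochberg method. Contrasts were OVA in Sham, OVA in PM, PM without OVA, PM with OVA and their interaction. Differences are of group means in percentage points, ± SE from the group SDs. Exonic, untranslated and upstream (2000 bp) bases were counted over all genes of GENCODE M21 with bedtools 2.31.1, pysam 0.24.0, pandas 2.3.3 and Python 3.11.15, and plots were drawn with matplotlib 3.10.9. The fit was tested on simulated data. The study's own test was EdgeR with group and library size as covariates, which was not applied to percentages.

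The members, lists and rules were chosen with earlier results of these data known. Named windows were all called windows, the window with the smallest mean p rank in Foxa1, Foxa2, Foxj1, Foxp1 and Foxo1, the window with the largest mean change in 20 genes, among windows past the threshold with 1 sign in both arms, the smallest p of each remaining contrast, and examples of called windows per list. The lists were 7 groups of Fox genes by role, FoxO regulators, FoxO targets, FoxA and FoxJ1 partners, and markers of T cells, B cells, leucocytes, lung epithelium and endothelium. Alternatives covered the offset, untransformed percentages, centred libraries, complete windows, 2-group fits, the replicate block, thresholds, windows of 1 annotated gene and each library left out. RNA data were not analysed here. Some single genes are not reported here, although the counts include their windows.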

Additional observations from a re-analysis of the deposited data

Results flagged for a closer look

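Gaps between 1 library and the rest of its group were examined in 84 groups of values (the 11 called windows, the windows with the smallest p of the 3 remaining contrasts and 7 gene means, in 4 groups each), and 5 were larger than Dixon's critical value at the 95% level, where chance gives about 1 in 20. In the Foxd2os window (114911569) Sham replicate 3 had 40.7%DNAm, while the other libraries of the group had 45.0 to 47.7. In the Foxp1 window at 511 kb (99009592) Sham-OVA replicate 7 had 61.5, against 65.9 to 69.2, and in the Foxp1 window at 85.8 kb (99434669) Sham-OVA replicate 2 had 70.2, against 73.7 to 76.4. The means over the windows of Foxp1 and of Foxo1 were both lowest in PM replicate 5, at 72.2 (others 73.2 to 73.9) and 55.6 (others 57.3 to 58.3).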

How the results depend on the processing

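Total counts of called and of passing Fox windows in the 2 OVA contrasts stayed within 1.5 times of those reported under the other offsets, untransformed percentages, centred libraries, complete windows, 2-group fits and the replicate block. By direction, centring moved the passing windows in PM from 129 higher and 159 lower to 205 and 109, and the called ones from 5 and 2 to 6 and 1. At an adjusted p under 1e-06, the study's own threshold, 3 windows were called in Sham (1 higher, 2 lower) and 4 in PM (2 and 2). Without the minimum 14 (4 and 10) and 16 (4 and 12) passed, so that losses outnumbered gains among passing Fox windows in both arms. At an adjusted p under 0.05 they also did so over all tested windows (22.3% against 13.3% in Sham, 34.8% against 9.26% in PM). A 5-point minimum gave 73 and 66 called Fox windows. Shares over all tested windows at an adjusted p under 1e-06 or a 5-point minimum are not given, so these counts were not compared with the whole table. Among windows of 1 annotated gene, 7 and 4 were called, all higher, since fewer windows were kept. With each library left out in turn, called windows numbered 9 to 12 in Sham and 6 to 9 in PM, and passing windows 238 to 285 and 269 to 296, while the maternal contrasts and the interaction stayed at 0. Over the 11 called windows and both OVA contrasts, 784 refitted values kept their side of the call, 14 lost it, 5 gained it and 0 turned the direction. One loss came with centred libraries, the Foxp1 window at 237 kb in PM (-9.85 points), and without PM-OVA replicates 7 and 8, chosen after seeing the data, the Foxd2os window was at 8.94 in PM.

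Replicate numbers of the labels did not pair the libraries. Over 42 pairs of same-numbered libraries the correlation of deviations was -0.0409 to 0.104 (median 0.0141), and with the replicate block 11 and 7 windows were called and 280 and 275 passed. With it Foxd1 and Foxm1 no longer had higher windows alone in both arms, nor Foxn2 and Foxr1 lower ones alone, and mesenchyme and vessel factors had 1 higher and 2 lower in PM. The Foxs1 window passed in Sham. Depth per window is unknown, so shallow windows could not be told from deep ones.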
